A study of Rattus norvegicus with 48 samples.

Results

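Among the protein-coding genes of rat liver slices, 43 were read at 1 CPM, counts scaled to a library total of 1000000, or more in every library from sham-operated liver and under 1 CPM in every vehicle library from bile-duct-ligated liver. They are 43 of the 14418 genes in the authors' table of expressed protein-coding genes, or 0.298%. The genes were chosen by their CPM in the sham and ligated vehicle libraries, so the difference between those groups is a description and carries no test as support. The same thresholds the other way, off in sham and on after ligation, held for 771 genes (5.35% of the table).

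The study sequenced RNA from precision-cut liver slices, thin living sections kept in culture, in 48 libraries. Slices labelled Sham_veh (9 libraries) came with the sham label and vehicle, and slices labelled BDL_veh (10 libraries) with bile duct ligation and vehicle. The other ligated slices had a compound: BDL_Sora (10 libraries), BDL_Nint (10 libraries) and BDL_SB525334 (9 libraries). Sora and Nint are the labels' short forms and are read here as the multikinase inhibitors sorafenib and nintedanib, while SB525334 is an inhibitor of ALK5, the type I receptor of TGF-beta. The labels used here give no strain, age, dose, culture time or animal, and no sham slice had a compound. The deposited sample sheet names the SB525334 libraries by another compound code in 9 of 9 cases and uses the labels' names for the other compounds. Since nothing says that the libraries of a group came from separate animals, a p-value here weighs a difference against library-to-library spread, and that spread may be technical.

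Ligation of the common bile duct stops bile flow, so that bile acids build up in the liver, hepatocytes are injured, bile ductules proliferate and myofibroblasts lay down collagen. TGF-beta is a main driver of that scarring: it signals through ALK5 to SMAD proteins that enter the nucleus and change transcription. Sorafenib and nintedanib block receptor tyrosine kinases, among them receptors of platelet-derived and vascular endothelial growth factors. A slice keeps the cell types of the liver together, so that fewer cells of a type and less RNA per cell cannot be told apart in these bulk libraries.

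The count table names genes by Ensembl ID only. None of the 43 IDs (0 of 32883 in the whole table) matched an entry of the RefSeq table used here (GRCr8), so gene symbols, known functions, promoters and cell type markers were not used, and the labelled tissue was not checked against markers. Genes are numbered 1 to 43 by their mean CPM in the sham libraries, gene 1 being the highest, and 4 IDs are given for the 2 highest and the 2 lowest log2 differences between SB525334 and Sora.

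Total counts ran from 12249470 to 29596987 per library, so that 1 CPM stood for 12.2 to 29.6 counts. In the deposited quality metrics, reads mapped to more than 1 place made up 9.85 to 20.85% with SB525334 and 10.17 to 12.66% in sham, against 8.1 to 8.89% with vehicle, 8.01 to 9.25% with Sora and 8.2 to 8.76% with Nint. The mitochondrial share was 2.19 to 4.49% with SB525334, 2.02 to 2.46% in sham, 1.33 to 1.54% with vehicle, 1.54 to 1.86% with Sora and 1.37 to 1.64% with Nint. Within SB525334, libraries 1, 6 and 8 had 9.85 to 11.27% of reads mapped to more than 1 place and the other 6 had 13.42 to 20.85%. Results with SB525334 are therefore given with and without libraries 1, 6 and 8 where the count moved, and the part of these metrics in them was not tested.

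In sham liver most of the 43 genes were low. Their mean sham level ran from 1.32 to 30.9 CPM with a median of 3.11 CPM; 2 genes were at 10 CPM or more, 8 between 5 and 10 CPM, 25 between 2 and 5 CPM and 8 under 2 CPM. In ligated vehicle slices the mean ran from 0.00789 to 0.680 CPM with a median of 0.312 CPM. It was under 0.1 CPM for 10 genes, between 0.1 and 0.5 CPM for 22 and at 0.5 CPM or more for 11. The word "off" thus covers genes with almost no counts and genes just below the threshold.

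Gene 1 had the highest sham level, 18.7 CPM in the lowest, 32.3 CPM in the median and 38.4 CPM in the highest library. In the ligated vehicle libraries its lowest, median and highest values were 0, 0.215 and 0.389 CPM. The groups lay far apart, and the highest value in any library with a compound was 0.609 CPM. Gene 3 had a sham median of 9.15 CPM (3.93 to 14.9) and at most 0.21 CPM in any ligated library. Gene 16 had a sham median of 3.98 CPM (3.14 to 6.08) and at most 0.0814 CPM in any ligated library. These 3 genes show the widest separation described here, with no ligated library near the sham range. Counts are not whole in 31.2% of libraries for gene 1 and in 25% for gene 3, most sham libraries among them. The levels of genes 1 and 3 are thus uncertain.

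At the other end, the threshold itself decided membership. Gene 21 had a vehicle library at 0.988 CPM, gene 17 one at 0.985 CPM and gene 39 one at 0.980 CPM. Just outside, the nearest genes of the table had highest vehicle values of 1.01, 1.02 and 1.05 CPM beside lowest sham values of 1.64, 2.59 and 1.06 CPM. By exact Poisson 95% limits on the counts, which cover counting error only, 8 genes lay clear of 1 CPM in every library of both groups. On the sham side alone 26 were clear, and on the vehicle side alone 17.

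The sham libraries also varied among themselves. The highest sham value was 1.57 to 13 times the lowest, with a median of 2.64 times; the ratio was above 5 for 5 genes and under 2 for 8. In edgeR's quasi-likelihood test over all genes, 43 of 43 were lower in vehicle than in sham slices at an adjusted p under 0.05, where 42.2% of all genes tested were lower. That count follows from the choice of the genes.

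**Figure D1:**
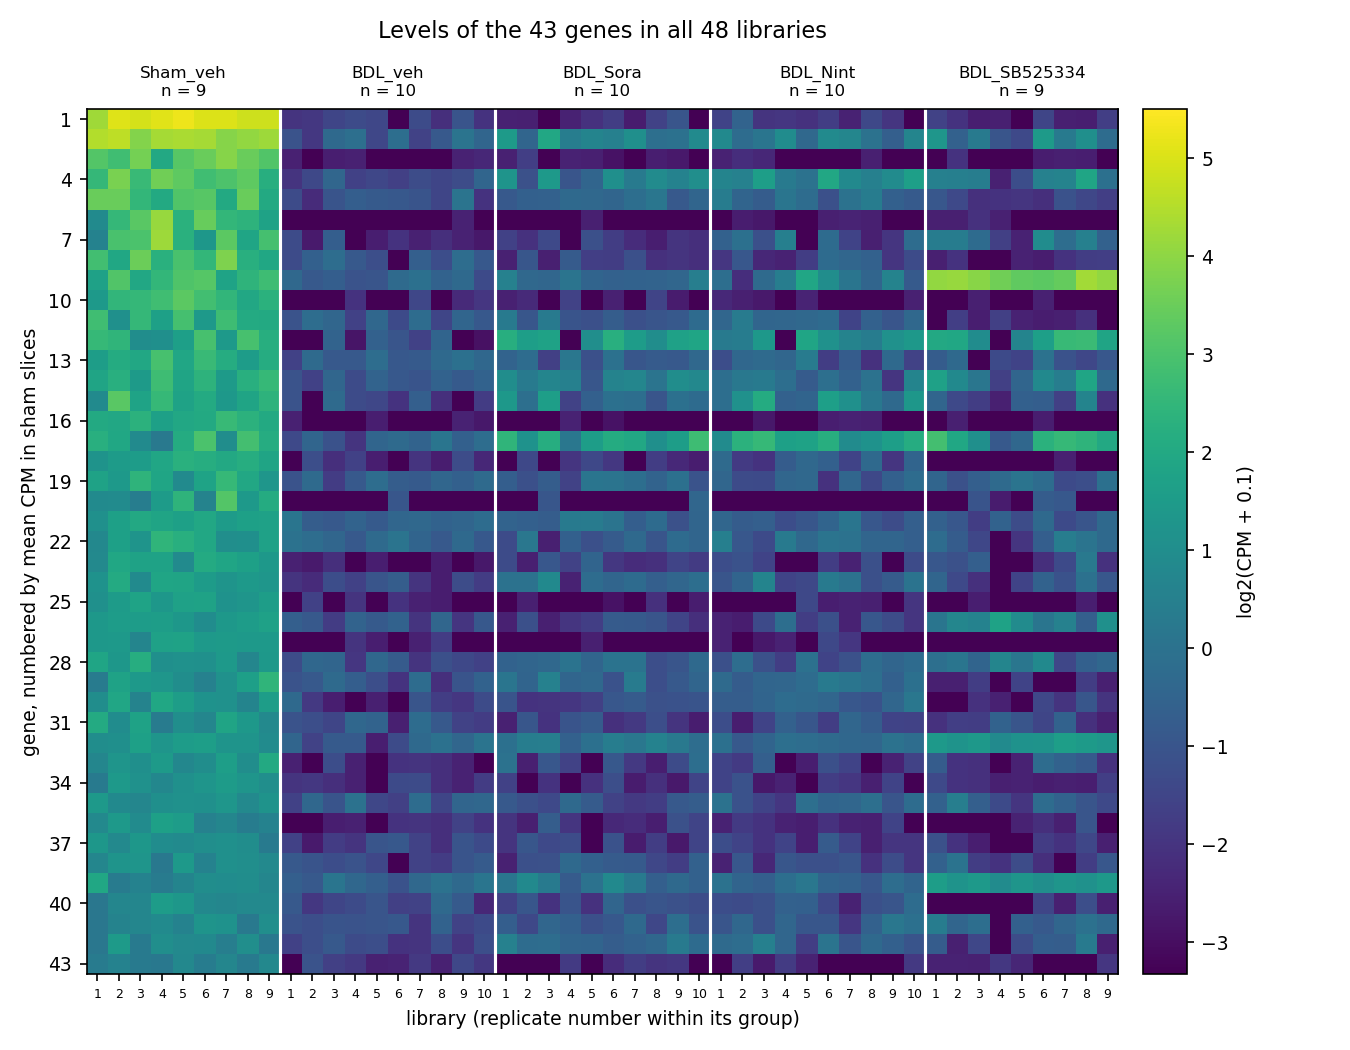
Level of each of the 43 genes (rows, ordered by mean sham CPM) in each of the 48 libraries (columns, by group), as log2(CPM + 0.1). In every row the sham columns are brighter than the ligated vehicle columns, though the contrast is small in some of the lower rows. A few rows are brighter again in the compound columns.

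With a compound, most of the 43 genes stayed under 1 CPM. In all 29 libraries with a compound 19 genes were under 1 CPM, and 24 reached it in at least 1 library, 3 of them in exactly 1 and 7 in 15 or more. The number of the 43 genes at 1 CPM or more was 4 to 11 per Sora library (6.7 ± 2.11, SD, n = 10), 5 to 8 per Nint library (6.0 ± 1.05, SD, n = 10) and 5 to 12 per SB525334 library (8.56 ± 2.55, SD, n = 9). Within SB525334 it was 10 to 12 in libraries 1, 6 and 8 and 5 to 10 in the other 6. The ranges overlap, and no library came near the 43 that every sham library has by the rule.

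The summed level of the 43 genes gave the same picture. It was 165.3 to 223.4 CPM in sham and 12.05 to 15.38 CPM in vehicle libraries. With Sora it was 17.79 to 33.96 CPM, with Nint 20.79 to 32.84 CPM and with SB525334 25.25 to 58.06 CPM. Every library with a compound was above the highest vehicle library and below the lowest sham library. Because the vehicle libraries were chosen to be low for these genes, a higher sum with a compound is favoured by the choice and is not tested. Gene 9 alone had a mean of 14.2 CPM of the 40.7 CPM mean sum with SB525334.

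The mean level as a share of the sham mean had a median over the 43 genes of 8.81% with vehicle, 12.5% with Sora, 13.7% with Nint and 10.5% with SB525334. At least 50% of the sham mean was reached by 3 genes with Sora, 1 with Nint and 6 with SB525334, while 19, 17 and 21 genes were under 10%, against 23 with vehicle. Genes 11, 13, 29, 37, 40 and 43 were under 10% with SB525334 and above it with vehicle. The other way, genes 4, 7, 9, 12, 15, 23, 24 and 33 were under 10% with vehicle and above it with SB525334. The choice of low vehicle values favours such moves up, which were not tested.

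**Figure D2:**
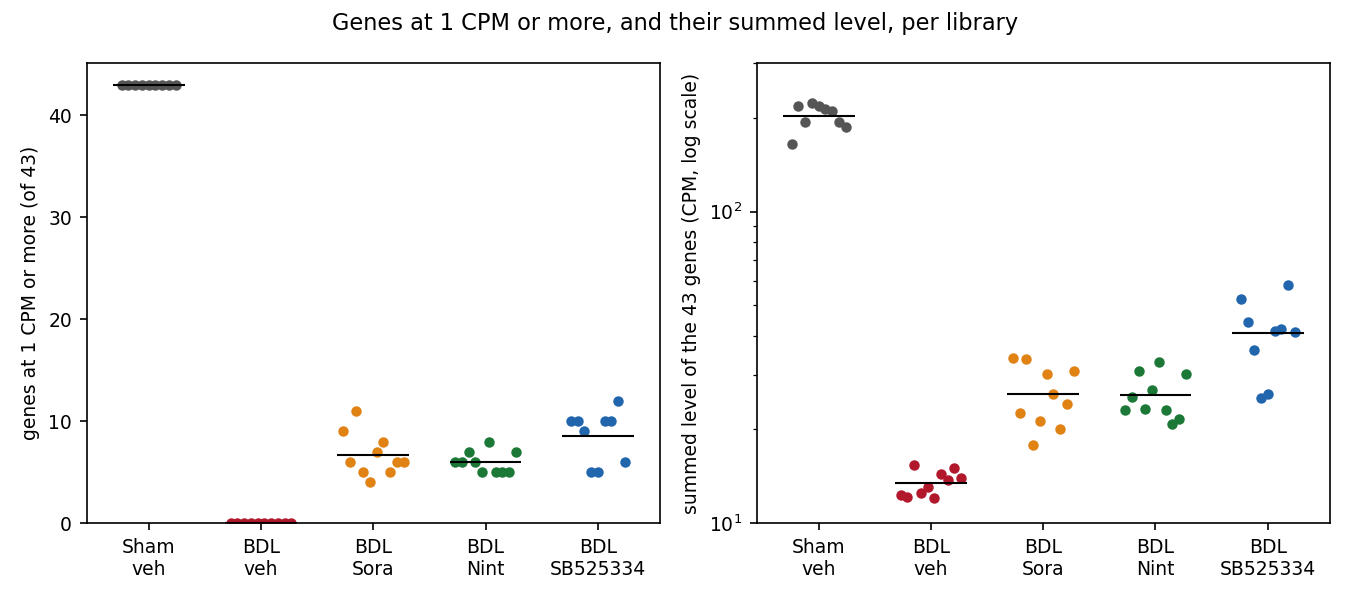
Number of the 43 genes at 1 CPM or more, and their summed CPM, in each library by group; each point is 1 library, black lines are group means, and the axis of summed CPM is a log scale. The compound groups lie between the vehicle and sham groups, and SB525334 spreads widest.

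Genes at 1 CPM or more in every library of a compound numbered 1 with Sora, 1 with Nint and 3 with SB525334. Those were 2.33%, 2.33% and 6.98% of the 43 genes. The table holds 800 genes under 1 CPM in every ligated vehicle library, the 43 included. Of the 800, 0.25%, 0.25% and 1.25% were at 1 CPM or more in every library of Sora, Nint and SB525334. Without the 43 the shares were 0.132%, 0.132% and 0.925%. The rest of the 800 did not have to be at 1 CPM in sham, and the difference was not tested. Gene 17 was the gene with Sora and with Nint, and genes 9, 32 and 39 were those with SB525334.

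Gene 9 (ENSRNOG00000022256) went above its sham level with SB525334. Its lowest, median and highest values were 3.17, 5.68 and 9.0 CPM in sham, 0.291, 0.553 and 0.845 CPM with vehicle, 0.574, 0.648 and 1.36 CPM with Sora, and 0.123, 0.894 and 3.66 CPM with Nint. With SB525334 the 9 libraries read 16.8, 17.4, 15.3, 11.9, 10.02, 9.66, 10.5, 19.1 and 16.7 CPM. Every SB525334 library was above every library of the other groups, sham included. It is the only one of the 43 with no overlap above sham, where 23% of all genes tested did the same. That count is shaped by the choice of the genes and is not tested. The log2 difference from Sora was 4.52 (SE 0.29, edgeR adjusted p = 1.85e-18) and that from Nint 3.95 (SE 0.28, edgeR adjusted p = 4.56e-17).

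Genes 32 and 39 reached the sham range with SB525334. Gene 32 had a sham median of 2.29 CPM (1.82 to 3.09), a vehicle median of 0.553 CPM (0.069 to 0.958) and an SB525334 median of 2.36 CPM (1.76 to 3.02). Gene 39 had a sham median of 1.54 CPM (1.18 to 3.69), a vehicle median of 0.683 CPM (0.365 to 0.981) and an SB525334 median of 2.31 CPM (1.83 to 2.90). Both overlapped with sham and lay above every vehicle, Sora and Nint library. The overlap of gene 39 rested largely on sham library 1 at 3.69 CPM. Its other sham libraries were at 1.18 to 1.9 CPM, and all SB525334 libraries but the lowest, at 1.83 CPM, were above those. Against Sora the difference was 1.54 for gene 32 (SE 0.20, edgeR adjusted p = 1.96e-09) and 1.55 for gene 39 (SE 0.22, edgeR adjusted p = 1.40e-08), both log2. Gene 32 has counts that are not whole in 100% of libraries, as when reads are shared out between similar transcripts, so its level is uncertain.

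Gene 26 (ENSRNOG00000003800) came part of the way. Its sham values had a median of 2.82 CPM (1.83 to 3.21) and its vehicle values a median of 0.456 CPM (0.154 to 0.648). It was at 0.0716 to 0.473 CPM with Sora and 0.0615 to 0.816 CPM with Nint. The 9 SB525334 libraries read 0.989, 1.57, 1.42, 3.29, 1.83, 0.966, 1.38, 0.539 and 2.06 CPM. Every one was above every Sora library, and libraries 1, 6 and 8 were the 3 lowest of the 9. The log2 difference from Sora was 2.86 (SE 0.32, edgeR adjusted p = 9.49e-11).

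**Figure D3:**
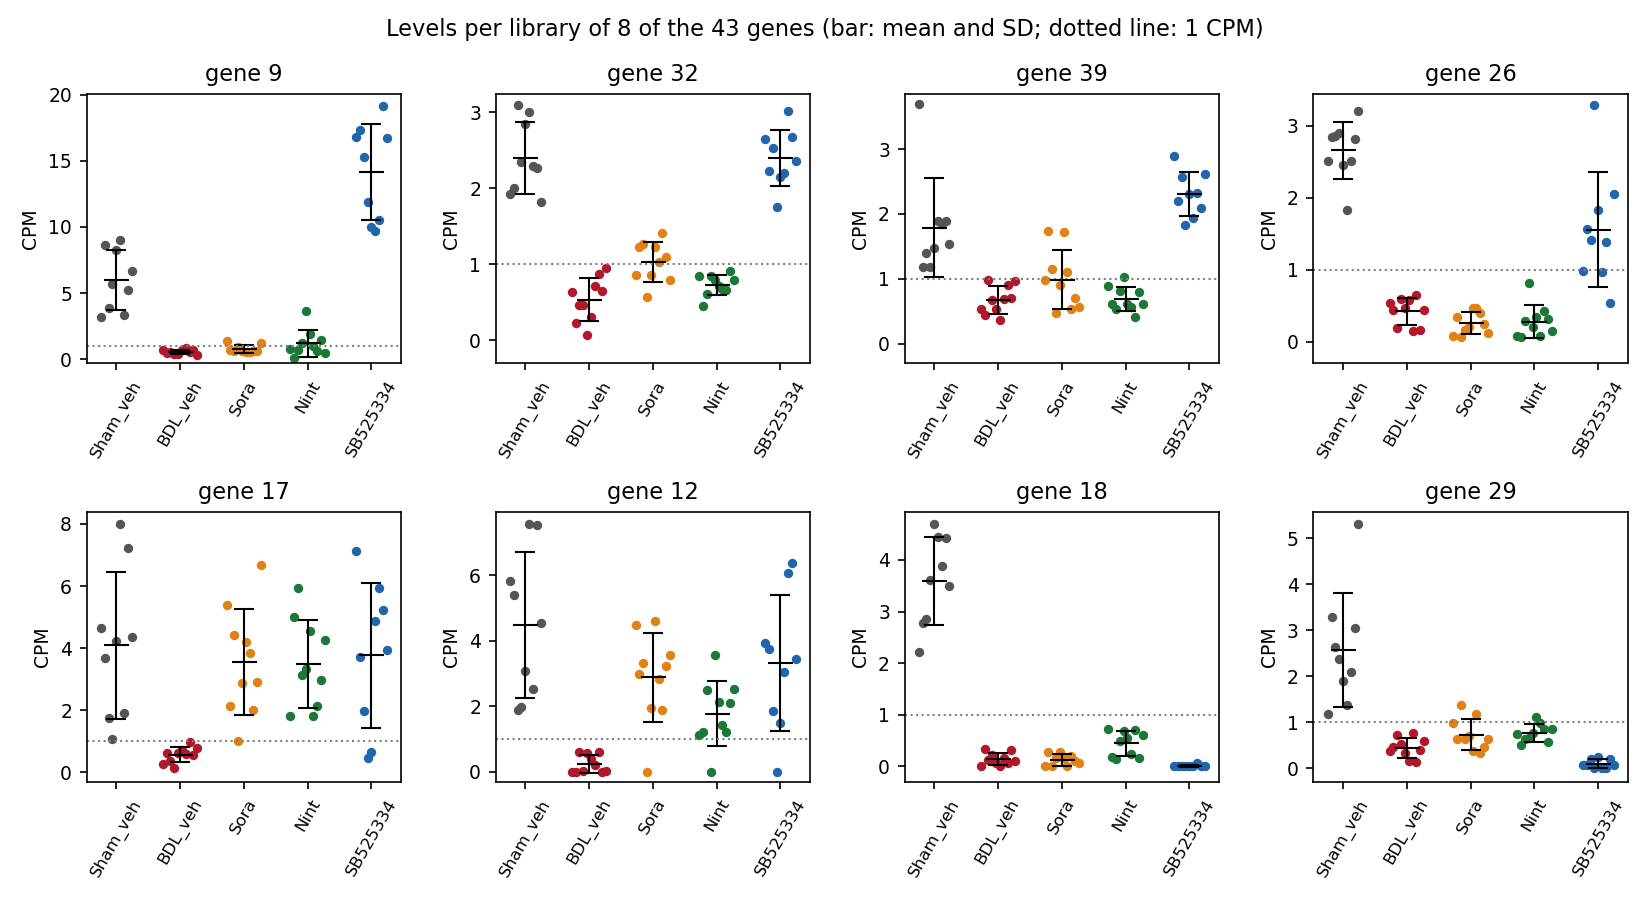
CPM per library, by group, for 8 of the 43 genes; each point is 1 library, bars are mean and SD, and the dotted line is 1 CPM. Gene 9 lies above its sham range in all 9 SB525334 libraries, genes 32 and 39 lie within or near it, and genes 18 and 29 lie lowest with SB525334.

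Genes 17 and 12 had higher mean levels with each of the 3 compounds than with vehicle, where they were chosen to be low, so no test against vehicle is given. Gene 17 had a sham median of 4.23 CPM (1.08 to 7.99) and a vehicle median of 0.611 CPM (0.152 to 0.985). Its median was 3.38 CPM with Sora (1.02 to 6.67), 3.23 CPM with Nint (1.81 to 5.94) and 3.95 CPM with SB525334 (0.451 to 7.13). Sora and Nint did not overlap with vehicle, while SB525334 libraries 4 and 5, at 0.451 and 0.666 CPM, did. The differences from vehicle were 2.66, 2.62 and 3.07 on the log2 scale.

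Gene 12 had a sham median of 4.55 CPM (1.91 to 7.56) and at most 0.613 CPM with vehicle. It was at 0 counts in library 4 of Sora, of Nint and of SB525334. In the other libraries it was at 1.90 to 4.59 CPM with Sora, 1.14 to 3.56 CPM with Nint and 1.48 to 6.37 CPM with SB525334. All libraries but those 3 were thus above the highest vehicle library. Counts of gene 12 are not whole in 89.6% of libraries and those of gene 17 in 100%, so both levels are uncertain.

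Gene 4 had a sham median of 8.15 CPM (4.56 to 13.2) and at most 0.66 CPM with vehicle. With Nint it was at 0.899 to 3.85 CPM, above every vehicle library and below every sham library. With Sora it was at 0.351 to 2.60 CPM and with SB525334 at 0.0737 to 3.5 CPM, both overlapping with vehicle. The differences from vehicle were 2.14 with Sora, 2.54 with Nint and 2.27 with SB525334 on the log2 scale, and no pair of compounds passed the edgeR test for it. Counts of gene 4 are not whole in 95.8% of libraries, so its level is uncertain.

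Some genes were above vehicle with Sora and Nint and not called with SB525334. Gene 15 had a sham median of 3.45 CPM (1.77 to 9.47), a vehicle median of 0.230 CPM (0 to 0.719), and medians of 0.825 CPM with Sora (0.236 to 3.01), 1.54 CPM with Nint (0.571 to 4.22) and 0.285 CPM with SB525334 (0.0731 to 1.48). SB525334 was lower than Nint by a log2 difference of -1.60 (SE 0.48; adjusted p = 0.00278, edgeR), with overlapping libraries. Gene 42 had a sham median of 1.68 CPM (1.03 to 2.72) and at most 0.458 CPM with vehicle. All 10 Sora libraries, at 0.507 to 1.36 CPM, were above that, while SB525334 ran from 0 to 1.15 CPM. For gene 42 no pair of compounds passed the test.

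Genes 2 and 14 were between the groups. Gene 2 had a sham median of 19.5 CPM (14.3 to 24.4), a vehicle median of 0.542 CPM, and medians of 1.40 CPM with Sora, 1.24 CPM with Nint and 1.1 CPM with SB525334. Every compound library, at 3.82 CPM or less, stayed below the sham range. Gene 14 had medians of 4.58 CPM in sham, 0.455 CPM with vehicle, 1.48 CPM with Sora, 0.821 CPM with Nint and 1.24 CPM with SB525334. SB525334 was above Nint by 1.25 on the log2 scale (SE 0.31; adjusted p = 0.000338, edgeR). Without SB525334 libraries 1, 6 and 8 the difference was 0.57 and did not pass (adjusted p = 0.1002, edgeR), and over the other alternatives it was called. Counts of gene 2 are not whole in 81.2% of libraries, so its level is uncertain.

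Across the 43 genes, 14 were higher and 0 lower with Sora than with vehicle in edgeR's test, where 16.3% of all genes tested were higher and 13% lower. With Nint 13 were higher and 0 lower, where the shares were 13.3% and 10.9%. With SB525334 15 were higher and 6 lower, where the shares were 38.2% and 34.8%. At an unadjusted p under 0.05, 2 genes were lower with Sora and 1 with Nint, and the share of all genes at that threshold was not computed. The choice of genes with low vehicle values favours increases in these 3 comparisons, which share the vehicle libraries. Without overlap of the groups, 2 genes lay above vehicle with Sora (2.1% of all genes tested), 2 with Nint (2.79%) and 3 with SB525334 (6.64%). Below vehicle without overlap lay 1 gene with SB525334, where 33.3% of all genes tested did, and 0 with Sora or Nint, where 5.66% and 4.55% did. The median log2 difference of the 43 genes was 0.41 with Sora, 0.39 with Nint and 0.44 with SB525334, beside 0.02, 0.02 and 0.04 over all genes tested.

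The comparisons between compounds contrast no group that chose the genes. The fit's filter, scaling and estimate of spread still used all 48 libraries, sham and vehicle included. Most of the 43 genes did not pass the filter when only the 2 groups compared were fitted, so these counts are not independent of the choice. Between SB525334 and Sora, 9 of the 43 genes were higher and 5 lower with SB525334 (20.9% and 11.6%), where 36.1% and 36.3% of all genes tested were. Between SB525334 and Nint, 12 were higher and 9 lower (27.9% and 20.9%), where 36.4% and 36.3% were. Each share was below that of all genes. Most of the 43 genes stayed under 1 CPM with a compound, and the share among genes of like level was not computed. The lower shares are therefore not read as particular to the 43 genes. Scaled by total counts alone, 5 genes were higher and 11 lower with SB525334 than with Sora, and 19.4% and 56.8% of all genes were. Against Nint that scaling gave 7 higher and 10 lower, and 18.2% and 57.9% of all genes. Against vehicle it gave 14 higher and 6 lower, and 18.7% and 57.6% of all genes. Without SB525334 libraries 1, 6 and 8, 8 genes were higher and 11 lower than with Sora, and 7 higher and 10 lower than with Nint. Lower genes thus became the larger number in both comparisons. The share of all genes called without those libraries is not given here, so this change is not read as particular to the 43 genes. The median log2 difference of the 43 genes was 0.13 against Sora and 0.20 against Nint, beside -0.02 and -0.01 over all genes.

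**Figure D4:**
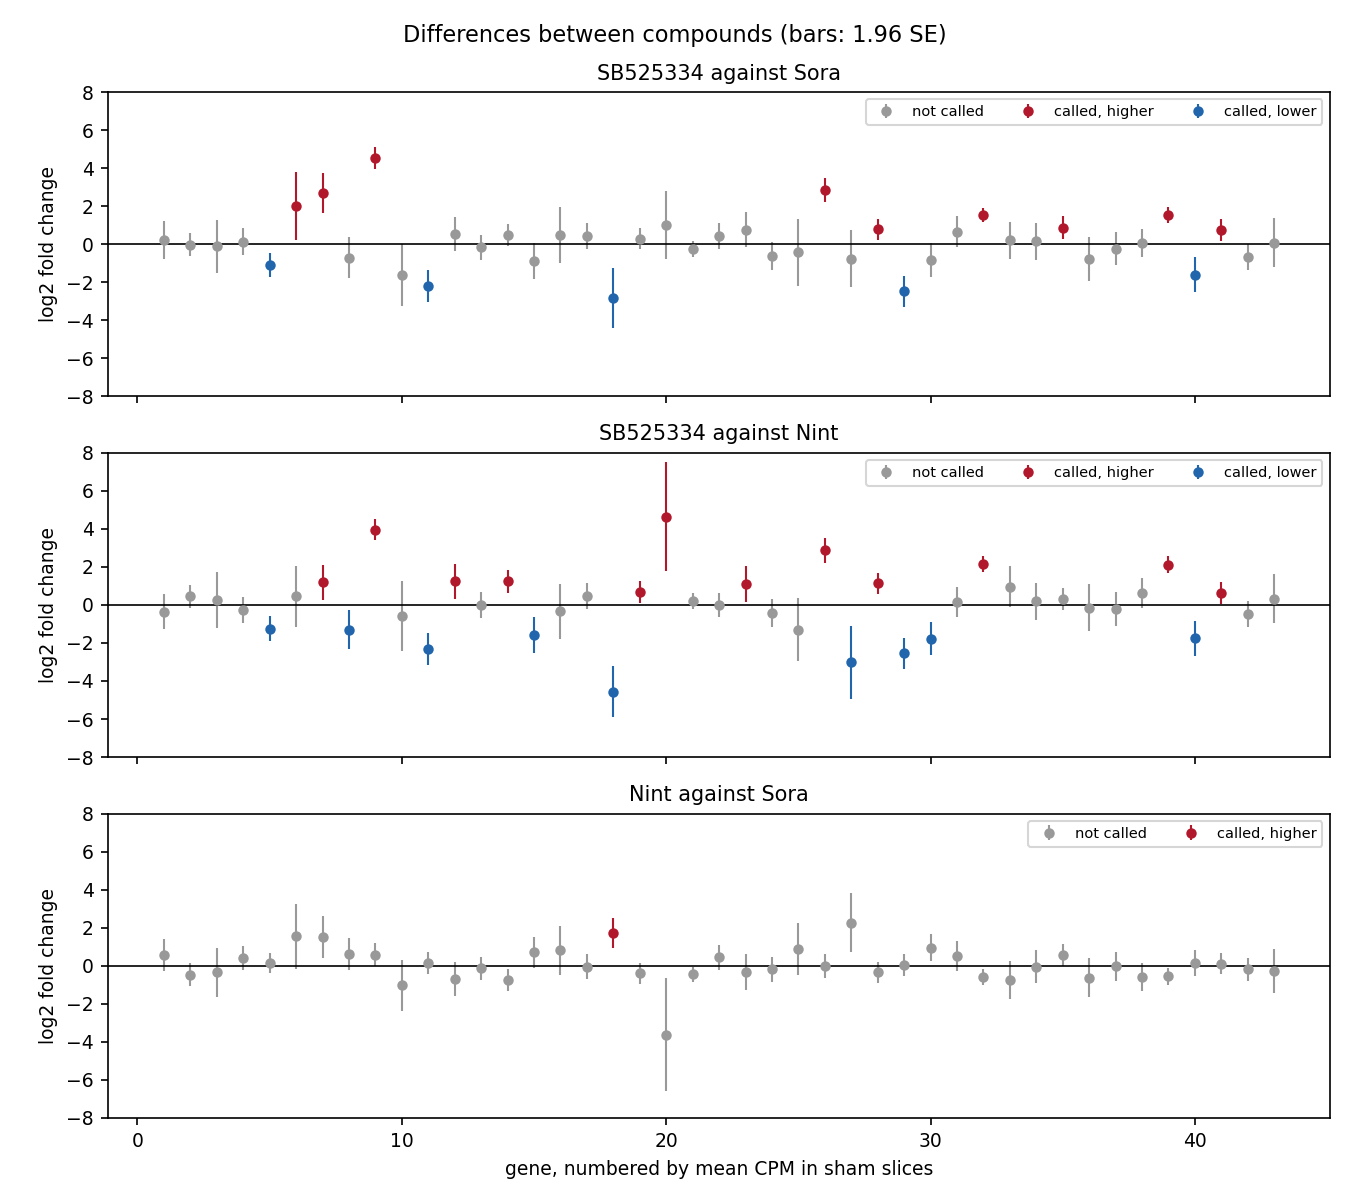
Log2 difference of each of the 43 genes between compounds, with called genes in colour and genes ordered by mean sham CPM. Bars are approximate 95% normal intervals, derived from the edgeR difference and its test statistic. Gene 9 stands highest for SB525334 against Sora at 4.52, differences lie on both sides of 0, and the fitted values of genes 20 and 27 depend on the fit's prior count because a group is at 0 counts.

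Genes lower with SB525334 than with both other compounds included 29, 18, 11, 5 and 40. Gene 29 (ENSRNOG00000009826) had a sham median of 2.37 CPM (1.18 to 5.31) and a vehicle median of 0.420 CPM (0.130 to 0.768). It was at 0.338 to 1.36 CPM with Sora, 0.492 to 1.1 CPM with Nint and 0 to 0.239 CPM with SB525334. All 9 SB525334 libraries were below every Sora and every Nint library. The log2 difference from Sora was -2.48 (SE 0.42, edgeR adjusted p = 1.02e-06) and that from Nint -2.54 (edgeR adjusted p = 6.79e-07).

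Gene 11 likewise lay lower with SB525334 than in any Sora, Nint or vehicle library. Its median was 4.14 CPM in sham (2.04 to 7.29), 0.533 CPM with vehicle (0.225 to 0.782) and 0.0727 CPM with SB525334 (0 to 0.219). The log2 difference from Sora was -2.20 (SE 0.42, edgeR adjusted p = 1.13e-05). Without overlap of the groups, 4 genes were higher and 3 lower with SB525334 than with Sora, where 6.88% and 28.5% of all genes tested were. Against Nint 3 were higher and 3 lower, where 6.36% and 31.1% were.

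Gene 18 (ENSRNOG00000040188) was at 0 counts in 8 of 9 SB525334 libraries and at 1 count in library 7. In the other groups it had 519 counts over the sham, 21 over the vehicle, 21 over the Sora and 62 over the Nint libraries. Scaled to total counts, Sora was 16.1 times SB525334 (exact 95% counting interval 2.59 to 666.4) and Nint 55.5 times (9.61 to 2229). The test against Sora gave an edgeR adjusted p of 0.00183, and over its 10 alternatives 1 did not pass, voom with sample weights (adjusted p = 0.0592). It was also the gene called between Nint and Sora, with a log2 difference of 1.73 in favour of Nint (SE 0.41; adjusted p = 0.0143, edgeR).

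Between Nint and Sora 1 of the 43 genes was higher with Nint and 0 lower, where 1.37% and 0.948% of all genes tested were. At an unadjusted p under 0.05, 4 were higher and 5 lower, and the share of all genes at that threshold was not computed. No gene separated Nint from Sora without overlap, where 0.284% of all genes tested were higher and 0.0338% lower. For 37 of the 43 genes the fitted difference was within 1 on the log2 scale. The 95% interval of a gene, not adjusted for the number of genes tested, had a median half-width of 0.71. For a typical gene, differences below that and also some above it could therefore go uncalled.

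At the low end, gene 27 had 0 counts in all 9 SB525334 libraries and gene 20 had 0 counts in all 10 Nint libraries. Against a floor of 3 counts over the group, sham was at least 111.4-fold higher for gene 27 and at least 156.8-fold higher for gene 20. Counts of gene 20 are not whole in 33.3% of libraries, every sham library among them, so its level and this bound are uncertain. Gene 27 was at 1.52 to 3.29 CPM in sham and had 1 count over the 10 Sora libraries. Below the whole sham range in every library lay 37 of the 43 genes with Sora, 37 with Nint and 32 with SB525334, where 11%, 11.4% and 18.6% of all genes tested did. Above the whole sham range lay 0 genes with Sora or Nint, where 34.1% and 35.4% of all genes tested did. The genes were chosen by their sham and ligated vehicle values, so these counts against sham are favoured by the choice and not tested.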

How the data were processed

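RNA from 48 rat liver slice libraries was analysed from the deposited tables. The authors deposited estimated counts per gene, with RSEM, edgeR and Rnor_6.0 named in the submitters' processing notes, and log2 CPM values of expressed protein-coding genes; 8.02% of the counts were not whole. The counting's strand setting is not stated per the labels or the submitters' processing notes. Deposited quality metrics include percent values of mapped reads.

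Members and lists were chosen with earlier results of these data known. Plain CPM chose the genes. Estimated counts were rounded and fitted in 1 model of 5 groups over 48 libraries with edgeR 4.0.16 (filterByExpr, TMM, robust quasi-likelihood, two-sided, Benjamini-Hochberg adjustment over 14775 genes). The SE given with a log2 difference is that difference over the square root of its quasi-likelihood test statistic. Such SEs and the intervals drawn from them are approximate. The fit was tested on simulated data. Alternatives used DESeq2 1.42.0, limma 3.58.1, other scalings, thresholds, filters and left-out libraries. Named IDs are the 2 highest and 2 lowest log2 differences between SB525334 and Sora among called genes; other genes were described after their values were seen. No within-group pair of libraries agreed within sampling noise (lowest chi-square per degree of freedom 3.94 over 207 pairs).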

Additional observations from a re-analysis of the deposited data

Results flagged for a closer look

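Among 86 groups of values tested, 12 held a library far from the others of its group by Dixon's 95% critical value. All 12 were groups of single-gene values, and the number of such groups among the 86 is not given here. The 12 are therefore not set against the rate of about 1 in 20 groups at which chance alone passes that value. That rate does not apply to gene 20 with vehicle, gene 27 with Sora and gene 18 with SB525334, where 1 library with counts stands beside libraries at 0 and passes by construction. In sham, gene 1 read 18.7 CPM in library 1 (others 28.6 to 38.4), gene 27 read 1.52 CPM in library 3 (others 2.51 to 3.29) and gene 39 read 3.69 CPM in library 1 (others 1.18 to 1.9). Gene 20 read 0.41 CPM in vehicle library 6, and gene 27 read 0.0692 CPM in Sora library 5, with 0 in the others.

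With Nint, gene 1 read 0.609 CPM in library 2 (others 0 to 0.28), gene 9 read 3.66 CPM in library 5 (others 0.123 to 1.93) and gene 26 read 0.816 CPM in library 4 (others 0.0615 to 0.42). SB525334 library 8 was high for gene 4 at 3.5 CPM (others 0.0737 to 1.46), gene 15 at 1.48 CPM (others 0.0731 to 0.635) and gene 42 at 1.15 CPM (others 0 to 0.515). Gene 18 read 0.0727 CPM in SB525334 library 7, with 0 in the others.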

How the results depend on the processing

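No called single-gene difference changed sign under the alternatives run, but the balance of calls did. Some calls were lost in most alternatives, while many were kept in every one. Gene 41 was called between SB525334 and Nint in 0 of 10 alternatives and between SB525334 and Sora in 4 of 10. Gene 23 was called between SB525334 and Nint in 2 of 10, and gene 39 between Sora and vehicle in 2 of 11. The number of genes meeting the rule was 54 with TMM and 52 with RLE library sizes, 29 at 0.5 CPM, 50 at 2 CPM, 50 on the authors' log2 CPM and 58 without vehicle libraries 3 and 6, against 43; of these, 17 at 0.5 CPM, 15 at 2 CPM and 39 on the authors' log2 CPM were among the 43. With total counts and no factors, SB525334 gave 5 higher and 11 lower than Sora and 7 higher and 10 lower than Nint; that scaling moved the median of all genes to -0.37 and -0.39 on the log2 scale. Fitting the 2 groups alone dropped most of the 43 genes by its filter, leaving 3 higher with Sora, 3 with Nint and 5 higher and 0 lower with SB525334 than with vehicle, 4 higher and 0 lower for SB525334 against Sora, 1 lower for SB525334 against Nint, and 0 higher and 1 lower for Nint against Sora. With the genes of the full fit, chosen after seeing the data, the 2 groups alone gave 1 lower with Sora than with vehicle, and 2 higher and 1 lower for Nint against Sora. DESeq2 gave 1 lower with Sora than with vehicle, as did leaving out vehicle libraries 3 and 6. Voom with sample weights gave 2 lower with Nint than with vehicle, and 3 higher and 2 lower for Nint against Sora. Limma on the authors' log2 CPM gave 6 higher and 8 lower for SB525334 against Sora, and 9 higher and 10 lower against Nint. Without SB525334 libraries 1, 6 and 8 there were 8 higher and 11 lower than with Sora, and 7 higher and 10 lower than with Nint. The cause of these moves was not tested, other than the filter named. Of these alternatives, shares of all genes called are given only for total counts. The other counts are therefore not read as results about the 43 genes.

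Genes at 1 CPM or more in every Sora library numbered 0 with TMM or RLE sizes; at 0.5 CPM they were 5 with Sora and 4 with Nint. By the group median they were 6 with Sora, 5 with Nint and 9 with SB525334. Leaving out 1 library at a time gave 1 to 2 with Sora (2 without library 4) and 1 to 2 with Nint (2 without library 4 or 5).

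Replicate numbers follow well order and were not taken as pairs: over 93 pairs of same-numbered libraries the median correlation of deviations was 0.013, and 4 of 48 libraries correlated best with their own number. With the replicate block, SB525334 gave 9 higher and 5 lower than Sora, and 10 higher and 9 lower than Nint.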
